A study of Mus musculus with 8 samples.

Results

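The genes described here make cholesterol and fatty acids or control that synthesis. They were chosen by name in 3 classes of 36 genes in all: 19 enzymes of the sterol pathway, 7 regulators of the sterol regulatory element binding proteins (SREBPs) and of sterol handling, and 10 genes of fatty acid synthesis. A probe set was named for 35 of the 36, with 18 sterol enzymes, all 7 regulators and all 10 fatty acid genes, out of 18194 genes with a level on the arrays. Acat2, which makes acetoacetyl-CoA at the start of the pathway, was not analysed here. Where a gene had several probe sets, the brightest one over all arrays stands for it, and levels are given in log2 units, so that a difference of 1 unit is a doubling.

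RNA came from peritoneal macrophages of male C57BL6/J mice, collected 4 days after 3% thioglycolate and kept in medium with 10% serum. Knockout mice were MR fl/fl with LysM cre, in which a Cre driven in myeloid cells removes the floxed mineralocorticoid receptor gene Nr3c2. Control mice were MR fl/fl without Cre, so the floxed alleles were present in every group. Cells of each genotype stood for 24 h with 1 µM corticosterone, the main glucocorticoid of mice, or without it, which gave knockout with corticosterone, knockout untreated, control with corticosterone and control untreated, with 2 arrays each. The labels call the arrays of a group biological replicates and say that RNA was pooled over triplicate experiments, so p-values measure the spread between such pools, which may be technical. The study asks how loss of the mineralocorticoid receptor alters the glucocorticoid response of macrophages.

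Animal cells build cholesterol from acetyl-CoA through mevalonate, the isoprenoid diphosphates, squalene and lanosterol, and build fatty acids from the same acetyl-CoA through malonyl-CoA. When sterols in the endoplasmic reticulum run low, Scap carries the SREBPs to the Golgi, where they are cut and released to the nucleus to switch on these genes, SREBP2 mainly those of sterols and SREBP1 mainly those of fatty acids. Insig proteins hold Scap back when sterols are plentiful, and the nuclear receptor LXR, which senses oxysterols, raises Srebf1 and the export of cholesterol in macrophages.

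In the promoters of these genes SREBPs are known to bind beside NF-Y, which recognises CCAAT, and Sp1, which recognises the GC box GGGCGG. RefSeq promoter windows of assembly GRCm38.p6, running over 300 bases with 250 before and 50 after the start, were found for 29 of the 36 genes and gave 38 windows. Each motif was searched on both strands and is counted per gene if any window of the gene held it. CCAAT was present for 15 of 16 sterol enzymes (93.8%), 5 of 6 regulators (83.3%) and 3 of 7 fatty acid genes (42.9%), against 42.3% of 17491 protein-coding genes. The GC box GGGCGG was present for 14 of 16 sterol enzymes (87.5%), all 6 regulators and 3 of 7 fatty acid genes, against 49.2% of protein-coding genes. The core of the sterol regulatory element, searched as TCACNCCA, was in the windows of Hmgcs1, Msmo1 and Srebf2, while 4.67% of protein-coding genes held it. So CCAAT and the GC box were frequent in the sterol class, while in the fatty acid class their shares were near or below those of all protein-coding genes. These matches describe letters in a fixed window and are not evidence of binding.

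The 3 windows with the sterol element core are shown with 2 others. Fasn had the largest fall with corticosterone in knockout cells, and Mvk held the most CCAAT boxes of the 5 windows but was called in neither hormone comparison. Each runs 5′ to 3′ on the gene's strand, and capitals mark TCACNCCA and CCAAT or their reverse complements. Hmgcs1 lies at chr13:119690101-119690400 on the plus strand with 1 core and 4 CCAAT boxes, Msmo1 at chr8:64733529-64733828 on the minus strand with 1 core and 3 boxes, and Srebf2 at chr15:82147019-82147318 on the plus strand with 1 core and 1 box. Fasn lies at chr11:120824498-120824797 on the minus strand with 3 CCAAT boxes, 2 of them overlapping on opposite strands, and Mvk at chr5:114444019-114444318 on the plus strand with 5.
Hmgcs1: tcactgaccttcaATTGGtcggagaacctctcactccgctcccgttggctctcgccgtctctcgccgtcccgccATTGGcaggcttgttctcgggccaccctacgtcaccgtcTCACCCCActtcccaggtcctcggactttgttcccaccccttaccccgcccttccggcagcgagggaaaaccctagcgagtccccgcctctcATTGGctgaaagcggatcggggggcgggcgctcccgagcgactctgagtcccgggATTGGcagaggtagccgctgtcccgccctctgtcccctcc
Msmo1: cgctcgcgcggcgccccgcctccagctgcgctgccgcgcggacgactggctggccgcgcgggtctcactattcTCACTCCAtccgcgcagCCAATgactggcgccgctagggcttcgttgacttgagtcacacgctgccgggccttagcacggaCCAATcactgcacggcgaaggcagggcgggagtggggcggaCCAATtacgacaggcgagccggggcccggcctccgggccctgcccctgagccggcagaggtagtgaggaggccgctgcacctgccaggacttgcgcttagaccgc
Srebf2: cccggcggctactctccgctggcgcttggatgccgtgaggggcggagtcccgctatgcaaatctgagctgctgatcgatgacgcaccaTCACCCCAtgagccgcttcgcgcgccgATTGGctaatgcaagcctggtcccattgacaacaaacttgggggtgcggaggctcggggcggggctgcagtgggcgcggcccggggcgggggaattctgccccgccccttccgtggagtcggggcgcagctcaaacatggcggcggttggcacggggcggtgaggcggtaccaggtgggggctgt
Fasn: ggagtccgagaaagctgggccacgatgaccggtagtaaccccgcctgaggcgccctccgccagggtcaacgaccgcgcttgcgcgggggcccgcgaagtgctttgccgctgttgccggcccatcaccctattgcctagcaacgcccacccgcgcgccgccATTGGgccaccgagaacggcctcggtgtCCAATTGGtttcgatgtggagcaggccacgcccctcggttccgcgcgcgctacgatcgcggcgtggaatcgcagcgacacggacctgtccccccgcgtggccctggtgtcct
Mvk: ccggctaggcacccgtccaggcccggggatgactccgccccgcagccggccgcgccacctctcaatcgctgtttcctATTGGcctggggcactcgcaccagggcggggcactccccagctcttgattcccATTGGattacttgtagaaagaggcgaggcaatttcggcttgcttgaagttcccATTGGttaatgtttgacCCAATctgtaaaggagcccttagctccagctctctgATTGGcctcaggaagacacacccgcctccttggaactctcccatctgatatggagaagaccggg

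Before the results, control untreated replicate 2 has to be named, because it stood apart. Over all probe sets it correlated with the rest at a median of 0.919, while each of the remaining 7 reached 0.994 to 0.995. Its 3′ signal exceeded its 5′ signal by 2.18 log2 units for Actb and 1.84 for Gapdh, against 0.41 to 0.62 and 0.65 to 0.79 on the rest. Its 10 fibroblast and mesothelial markers averaged 8.72, against 7.12 to 7.55 on the rest, with Pdgfra at 12.05, against 7.73 to 8.57, and Lum at 8.07, against 4.05 to 4.65, both named after their values were seen. Not every marker of the list rose, and these too are named after their values were seen. Krt18 read 4.62, against 6.19 to 6.92 on the rest. Msln, Upk3b and Krt19, at 3.82, 5.36 and 5.11, lay within the range of the rest. The part of the listed markers and of the 3′ signal in the levels of this array was not tested. Of the 35 genes, 18 lay below and 11 above the range of the other 7 arrays there. The same was not counted over all genes, so it does not set the 35 apart. Over all genes the median difference between the untreated control arrays was 0.472. Its readings of Nsdhl, 7.90, and Fdps, 9.33, lay far below those of control untreated replicate 1, 10.02 and 11.49. Fads2 read 10.85 on it, against 7.45 on replicate 1. The main fit therefore used 7 arrays, with control untreated replicate 1 alone in its group, a lone array that borrows its spread from the replicated groups, and the fit of all 8 arrays is given beside it. Between replicates, the median difference over the 35 genes was 0.060 in knockout cells with corticosterone, 0.053 in knockout untreated cells, 0.044 in control cells with corticosterone and 0.588 in control untreated cells.

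The targeted gene and the cell type were checked on the same arrays. Nr3c2 read 5.11 and 5.47 in knockout with corticosterone and 5.54 and 5.82 in knockout untreated cells, against 6.39 and 6.13 in control with corticosterone, and 6.39 and 8.46 in control untreated cells. It was lower in knockout than in control cells with corticosterone (difference -0.97, adjusted p = 0.0290) and was not called without it (-0.71, adjusted p = 0.161). Whether its probe set lies in the deleted part of the gene was not determined. The glucocorticoid receptor gene Nr3c1 lay between 11.05 and 11.32 on the 7 arrays, and fell with corticosterone in knockout cells by 0.19 (adjusted p = 0.0149). Of 8 macrophage markers, Csf1r (13.52 to 13.59), Lyz2 (13.58 to 13.78) and Cd68 (13.42 to 13.72) read high on each of the 8 arrays. Adgre1, Cd14 and Fcgr1 lay between 10.98 and 13.0, Itgam between 7.42 and 9.08, and Cd163 at 10.65 to 10.77 with corticosterone and 5.92 to 6.44 without it. In such bulk RNA, fewer cells of a type and less RNA per cell cannot be told apart.

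**Figure D1:**
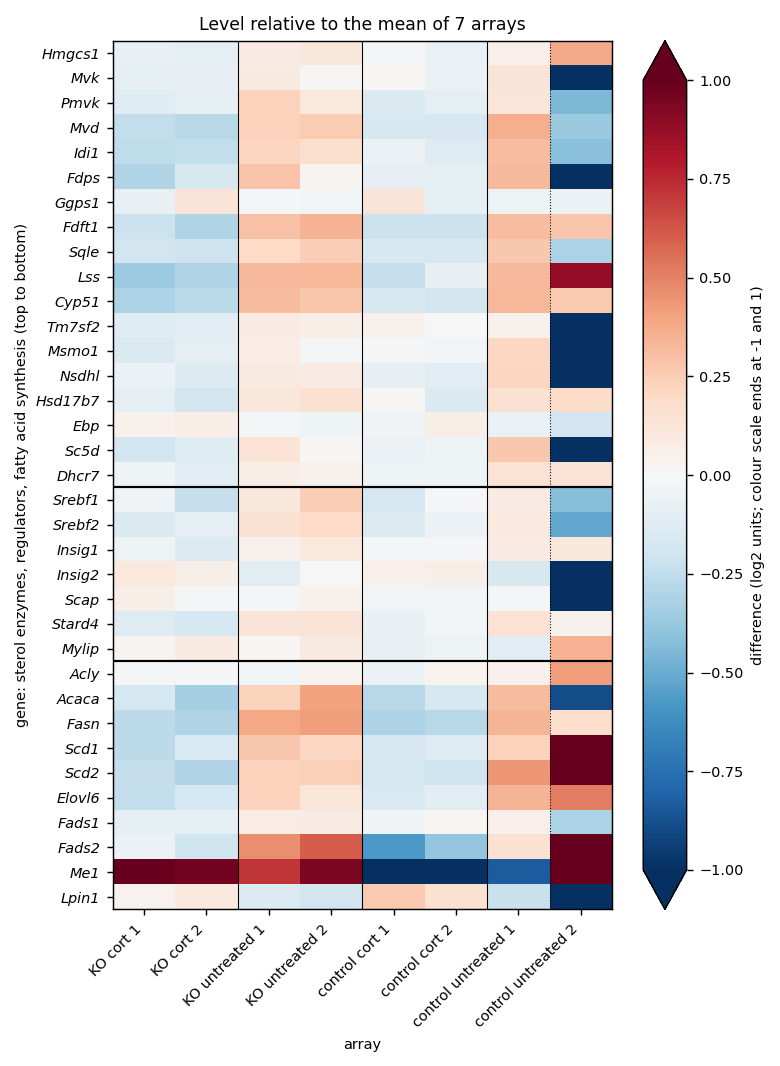
Level of each of the 35 genes (rows) on each of the 8 arrays (columns), as the difference in log2 units from the gene's mean over the 7 arrays of the main fit, with the colour scale ending at -1 and 1. In each genotype most sterol and fatty acid genes are lower in the hormone-treated columns, Me1 differs by genotype, and control untreated replicate 2 (last column, after the dotted line) stands apart in both directions.

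Corticosterone lowered most of these genes in knockout cells. By limma with adjustment over all 18194 genes, 25 of the 35 were lower at an adjusted p under 0.05, 1 was higher and 9 were not called, where 7.96% of all genes were called lower and 5.75% higher. The median difference of the 35 was -0.27, and that of all genes was -0.019. Without knockout corticosterone replicate 1 or 2, fewer of the 35 were called lower, sterol enzymes among them. Lower calls fell over all genes in both of these fits too. Both hormone-treated arrays lay below both untreated arrays for 27 of the 35, while 28.8% of all genes were so placed. Among the genes called lower the differences ran between -37.8% for Fasn and -8.34% for Dhcr7, and 4 of the 25 also reached a fold of 1.5. On the same arrays 14 of 20 cell cycle genes, 4 of 5 B cell markers and 5 of 5 T and NK cell markers were called lower too, and their part in the result was not tested.

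Cyp51, the lanosterol demethylase, had the smallest adjusted p of the sterol enzymes. It read 10.93 and 10.97 with corticosterone in knockout cells, against 11.55 and 11.52 without it, a difference of -0.59 (SE 0.034, adjusted p = 4.77e-06). Control cells gave 11.08 and 11.06 with the hormone, against 11.57 and 11.50 on replicates 1 and 2 without it, and with 7 arrays the difference there was -0.50 (SE 0.042, adjusted p = 7.14e-05). On the brightest Cyp51 probe set the treated and untreated arrays overlapped in neither genotype, also with the array that stood apart. That held too for another, with a mean level of 9.67. On the dimmest, with a mean level of 7.44, control cells read 7.25 and 7.14 with the hormone, against 7.61 and 6.76 without it.

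Fdft1, squalene synthase, makes the first intermediate committed to sterols. Its knockout levels were 10.41 and 10.33 with corticosterone, against 10.92 and 10.98 without it, a difference of -0.58 (SE 0.043, adjusted p = 2.33e-05). The control levels were 10.41 on both arrays with the hormone, against 10.94 and 10.91 without it. Lss, lanosterol synthase, closes the first sterol ring system, and had the largest fall of the sterol class in knockout cells. In control cells Mvd, Fdft1 and Cyp51 fell by 0.53, 0.53 and 0.50, and Lss by 0.48. In knockout cells it read 8.97 and 9.03 with corticosterone, against 9.66 and 9.67 without it, so that the difference was -0.66 (SE 0.064, adjusted p = 0.000107). Control cells read 9.11 and 9.26 with the hormone, against 9.66 and 10.22 without it. On the brightest probe set of both genes every treated array was below every untreated array of its genotype. Another Fdft1 probe set, also with a mean level of 10.63, read 10.53 and 10.39 with the hormone in control cells, against 11.00 and 10.08 without it. The dimmest Lss probe set read 8.04 and 7.90 there, against 8.22 and 7.96, while the remaining one kept the separation.

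Sqle, squalene epoxidase, acts between these enzymes. In knockout cells its levels were 10.27 and 10.24 with corticosterone, against 10.65 and 10.69 without it (difference -0.42, SE 0.039, adjusted p = 9.34e-05). In control cells they were 10.29 on both treated arrays, against 10.72 on replicate 1 and 10.13 on replicate 2 without it. The untreated control arrays thus fell on either side of the treated ones, and the control fall of 0.43 (adjusted p = 0.000394) rests on replicate 1.

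Upstream, Mvd, which decarboxylates mevalonate diphosphate, read 9.64 and 9.60 with corticosterone in knockout cells, against 10.11 and 10.13 without it (difference -0.50, SE 0.045, adjusted p = 6.68e-05). Its control levels were 9.72 and 9.71 with the hormone, against 10.25 and 9.51 without it. Idi1, the isomerase of the isoprenoid unit, read 10.88 and 10.89 in treated knockout cells, against 11.35 and 11.29 in untreated ones (difference -0.44, SE 0.039, adjusted p = 6.55e-05). For Idi1, control cells gave 11.08 and 11.00 with the hormone, against 11.44 and 10.72 without it. Both genes separated the treated from the untreated knockout arrays, while in control cells replicate 2 without hormone read below the treated arrays.

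Fdps, farnesyl diphosphate synthase, varied more between replicates. It read 10.86 and 11.00 with corticosterone in knockout cells, against 11.45 and 11.19 without it, a difference of -0.39 (SE 0.076, adjusted p = 0.00856). Treated control cells read 11.08 and 11.07, against 11.49 and 9.33 in untreated ones. Hmgcs1, the synthase that feeds the mevalonate pathway, is the brightest of the sterol probe sets. Its knockout levels were 13.07 and 13.05 with corticosterone, against 13.22 and 13.25 without it (difference -0.18, SE 0.025, adjusted p = 0.00121). Its control levels were 13.12 and 13.08, against 13.19 and 13.52, and with 7 arrays the difference of -0.09 was not called (adjusted p = 0.107). Of its 4 other probe sets, the 3 with a mean level of 11.47 to 11.75 were called lower in control cells when tested as probe sets (-0.24, -0.25 and -0.26, adjusted p = 0.00750, 0.00600 and 0.00411), while the dimmest was not (-0.47, adjusted p = 0.0690). In knockout cells the 3 differed by -0.23, -0.20 and -0.33.

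The other 6 sterol enzymes that were called lower in knockout cells, Pmvk, Hsd17b7, Sc5d, Nsdhl, Msmo1 and Dhcr7, had smaller differences, between -0.28 for Pmvk and -0.13 for Dhcr7. Pmvk is the second kinase of the mevalonate pathway, and the other 5 act after lanosterol, with Dhcr7 the last reductase before cholesterol. In control cells 4 of the 6 were called lower, while Pmvk (-0.24, adjusted p = 0.0700) and Hsd17b7 (-0.22, adjusted p = 0.0999) were not. Of those 4, only Dhcr7 (-0.19) kept its sign with 8 arrays. Nsdhl read 9.73 and 9.71 with the hormone in control cells, against 10.02 and 7.90 without it, Msmo1 11.70 and 11.68, against 11.92 and 10.26, and Sc5d 10.72 and 10.73, against 11.04 and 9.63. On the probe sets that stand for these 3 genes the untreated control arrays lay on either side of the treated ones. Their 7-array differences were -0.30, -0.22 and -0.32, and their 8-array differences 0.76, 0.60 and 0.39. With replicate 2 in place of replicate 1 the differences were 1.82, 1.43 and 1.09. A dimmer Msmo1 probe set did not place the control arrays so, at 8.28 and 8.32 with the hormone, against 8.41 and 8.75. Nor did a dimmer Sc5d probe set, at 7.64 and 7.77, against 7.84 and 7.86.

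Mvk, Ggps1, Tm7sf2 and Ebp were not called in either genotype. Mvk, mevalonate kinase, read 8.70 and 8.72 with corticosterone, against 8.89 and 8.81 without it in knockout cells, and 8.81 and 8.74, against 8.93 and 7.32, in control cells. Ggps1, which makes the geranylgeranyl diphosphate used to prenylate proteins rather than for sterols, read 9.37 and 9.57, against 9.43 and 9.41, in knockout cells, and 9.57 and 9.34, against 9.39 and 9.38, in control cells. The groups of Ggps1 overlapped in both genotypes, and its difference in knockout cells was 0.05 with a 95% interval of -0.15 to 0.24. A dimmer Ggps1 probe set, with a mean level of 8.74, was called higher in knockout cells when tested as a probe set (0.30, adjusted p = 0.0163) and not in control cells (0.17, adjusted p = 0.283). Tm7sf2, a sterol reductase, gave 9.08 and 9.09, against 9.28 and 9.25, in knockout cells (difference -0.18, adjusted p = 0.0588), and 9.24 and 9.20, against 9.23 and 7.84, in control cells. Ebp, the sterol isomerase, read 11.45 and 11.46, against 11.38 and 11.35, in knockout cells, and 11.37 and 11.46, against 11.34 and 11.21, in control cells. Neither Tm7sf2 nor Ebp passed the test.

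**Figure D2:**
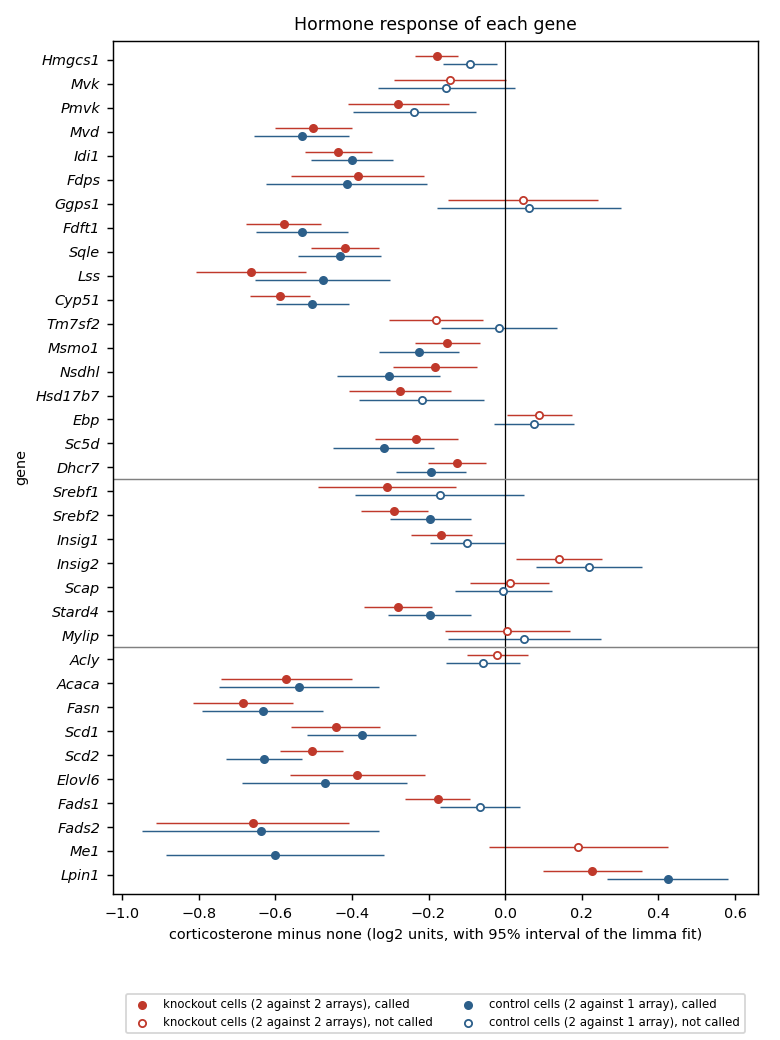
Difference in level between corticosterone and none, in log2 units with 95% intervals from limma, for each of the 35 genes in pathway order within class (sterol enzymes, regulators and fatty acid synthesis from top to bottom), with knockout cells in red above control cells in blue. Filled points passed an adjusted p under 0.05: 26 genes in knockout and 21 in control cells. Most points lie left of 0 in both colours, Lpin1 lies right of it in both, and Me1 lies on opposite sides.

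Of the 7 regulators, 4 were called lower in knockout cells, with a median difference of -0.17. Fewer were called lower without knockout corticosterone replicate 2, where fewer of all genes were too. Srebf2, which encodes SREBP2, read 11.18 and 11.22 with corticosterone in knockout cells, against 11.47 and 11.51 without it (difference -0.29, SE 0.038, adjusted p = 0.000819). In control cells Srebf2 read 11.18 and 11.26, against 11.42 and 10.80, and was called lower with 7 arrays (-0.20, adjusted p = 0.0282). Srebf1, which encodes SREBP1, read 9.74 and 9.55, against 9.88 and 10.02, in knockout cells (-0.31, SE 0.080, adjusted p = 0.0309), and 9.61 and 9.77, against 9.86 and 9.35, in control cells, where it was not called (adjusted p = 0.367). The 2 Srebf transcripts thus fell in knockout cells by similar amounts, but Srebf1 varied more between replicates.

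Stard4, a carrier that moves cholesterol between membranes, read 10.49 and 10.44 with corticosterone in knockout cells, against 10.75 and 10.74 without it, a difference of -0.28 (SE 0.039, adjusted p = 0.00115). Its control levels were 10.54 and 10.59, against 10.76 and 10.66, with a 7-array difference of -0.20 (adjusted p = 0.0301). On the brightest Stard4 probe set the treated and untreated arrays did not overlap in either genotype. On its other probe sets the untreated control arrays lay on either side of the treated ones. These read 9.51 and 9.48 with the hormone, against 9.70 and 8.76, and 7.58 and 7.61, against 7.77 and 5.78. Insig1, the sterol-dependent anchor of Scap and itself a known SREBP target, read 12.33 and 12.24, against 12.42 and 12.48, in knockout cells (-0.17, adjusted p = 0.0124). Its control levels were 12.36 on both treated arrays, against 12.46 and 12.49, a difference that was not called (-0.10, adjusted p = 0.221).

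The related anchor Insig2 lay on the other side. It read 10.18 and 10.13 with corticosterone, against 9.96 and 10.07 without it, in knockout cells (0.14, adjusted p = 0.106), and 10.13 and 10.14, against 9.91 and 8.98, in control cells (0.22, adjusted p = 0.0533). On this brightest Insig2 probe set all treated arrays were above the untreated arrays of their genotype, but neither difference passed the test. The dimmest, with a mean level of 8.72, differed by 0.05 in knockout and -0.07 in control cells. It read 8.74 and 8.81 with the hormone in control cells, against 8.85 and 8.65 without it. The remaining one had the sign of the brightest in both genotypes. Scap, the escort, read 10.28 and 10.20, against 10.20 and 10.26, in knockout cells, and 10.19 on both treated arrays, against 10.19 and 8.74, in control cells. Mylip, a ubiquitin ligase that removes lipoprotein receptors and is induced by LXR, read 8.36 and 8.43 in knockout cells both with and without the hormone, and 8.26 and 8.29, against 8.22 and 8.68, in control cells. The 95% interval of the knockout difference was -0.09 to 0.12 for Scap and -0.16 to 0.17 for Mylip.

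The fatty acid class held the largest fall, that of Fasn. In knockout cells 7 of its 10 genes were called lower and 1 higher, with a median difference of -0.41. Fasn, fatty acid synthase, read 8.75 and 8.72 with corticosterone in knockout cells, against 9.40 and 9.43 without it (difference -0.68, SE 0.057, adjusted p = 4.64e-05). In control cells Fasn read 8.70 and 8.74, against 9.35 and 9.18 (7 arrays: -0.63, adjusted p = 0.000384). Acaca, the carboxylase that supplies its malonyl-CoA, read 9.77 and 9.61, against 10.17 and 10.35, in knockout cells (-0.57, SE 0.075, adjusted p = 0.000800), and 9.67 and 9.78, against 10.26 and 9.06, in control cells. Fasn kept its separation on all 8 arrays, while for Acaca control untreated replicate 2 lay below every other array.

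Of the desaturases, Scd2 had the smallest adjusted p. Scd2 read 10.92 and 10.85 with corticosterone in knockout cells, against 11.38 and 11.40 without it (-0.51, SE 0.036, adjusted p = 1.70e-05), and 10.98 and 10.96, against 11.60 and 12.19, in control cells. Scd1, the related stearoyl-CoA desaturase, read 9.88 and 9.99, against 10.41 and 10.34, in knockout cells (-0.44, SE 0.052, adjusted p = 0.000359), and 9.97 and 10.01, against 10.37 and 11.44, in control cells. Both were lower on every treated array of both genotypes. Fads2, which starts the desaturation of polyunsaturated fatty acids, read 7.24 and 7.10, against 7.76 and 7.90, in knockout cells (-0.66, SE 0.11, adjusted p = 0.00361). In control cells Fads2 read 6.72 and 6.90, against 7.45 and 10.85, so its untreated replicates differed by 3.40 log2 units.

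Elovl6, which lengthens palmitate, read 7.97 and 8.04 with corticosterone in knockout cells, against 8.45 and 8.34 without it (-0.39, SE 0.078, adjusted p = 0.00944), and 8.06 and 8.11, against 8.56 and 8.73, in control cells (-0.47, adjusted p = 0.0120). Fads1, the partner desaturase of Fads2, was called lower in knockout cells (-0.18, adjusted p = 0.0126) and not in control cells (-0.07, adjusted p = 0.485). Acly, which makes the cytosolic acetyl-CoA for both pathways, was among the brightest probe sets and did not pass the test: it read 12.72 and 12.71, against 12.70 and 12.77, in knockout cells, and 12.67 and 12.76, against 12.77 and 13.15, in control cells. The 95% interval of the knockout difference of this brightest Acly probe set was -0.10 to 0.06. Another, with a mean level of 12.11, was called lower in control cells when tested as a probe set (-0.19). It read 12.10 and 12.09 with the hormone there, against 12.28 and 12.26 without it, and was not called in knockout cells (-0.09). A dimmer Acly probe set, with a mean level of 8.79, was called in neither genotype (-0.11 in knockout and -0.37 in control cells).

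Lpin1, whose product dephosphorylates phosphatidate and also acts in the nucleus, was the 1 gene of the 35 called higher, in both genotypes. It read 9.60 and 9.66 with corticosterone in knockout cells, against 9.43 and 9.38 without it (0.23, SE 0.057, adjusted p = 0.0278), and 9.83 and 9.72, against 9.35 and 8.15, in control cells (0.42, SE 0.070, adjusted p = 0.00386). These per-array values were chosen after they were seen. Every treated array was above every untreated array.

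In control cells 20 of the 35 genes were called lower with corticosterone and 1 higher with 7 arrays, where 5.95% of all genes were called lower and 4.84% higher, and the median difference was -0.22, that of all genes -0.0048. By class, 11 of 18 sterol enzymes (median -0.27), 2 of 7 regulators (median -0.10) and 7 of 10 fatty acid genes (median -0.50) were lower. Single arrays weighed on these counts: without control corticosterone replicate 1 or 2, fewer of the 35 were called lower. Lower calls fell over all genes in both of these fits too, so the fall is not a result about the 35. With control untreated replicate 2 in place of replicate 1, more of the 35 were called higher than lower. Calls in both directions rose over all genes too, with more higher than lower, so counts from that fit are not a result about these genes. In both genotypes 19 genes were called lower. A further 6 were called lower in knockout but not in control cells, Pmvk, Hsd17b7, Srebf1, Insig1, Fads1 and, by its brightest probe set, Hmgcs1, and Me1 was called lower in control but not in knockout cells. The medians ranked the classes alike in both genotypes, fatty acid genes first and regulators last; this order describes the lists and was not tested. The class medians hide wide spreads, from -0.66 to 0.09 in the sterol class and from -0.68 to 0.23 in the fatty acid class in knockout cells.

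With all 8 arrays none of the 35 genes was called in either hormone comparison by limma, where 0.148% of all genes were called in knockout and 0.17% in control cells. At an unadjusted p under 0.05, 9 genes were lower in knockout cells, and 9 were lower and 1 higher in control cells. Of all 18194 genes, 836 were under it in either direction in knockout and 1556 in control cells. The estimates in knockout cells are the same in both fits and only the shared spread is larger; the smallest adjusted p was 0.0875, for Cyp51. A fit of the 4 knockout arrays alone called 21 of the 35 lower, and 1105 of all 18194 genes. In control cells the estimates themselves depend on the array: with 8 arrays 9 of 18 sterol enzymes had a negative difference and the sterol median was 0.0055.

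Of the 35 genes, 25 have more than 1 probe set. For the 35, 32 other probe sets had a mean level of at least 6. All 32 had the same sign as the brightest probe set of their gene for the hormone difference in knockout cells. In control cells 31 of 32 did, and the exception was the dimmest probe set of Insig2.

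Between genotypes, 1 of the 35 genes was called. Me1, the cytosolic malic enzyme that supplies NADPH for fatty acid synthesis, was higher in knockout cells with and without the hormone. With corticosterone it read 9.0 and 8.89 in knockout cells, against 6.43 and 6.57 in control cells, a difference of 2.45 (SE 0.10, 5.45-fold, adjusted p = 2.59e-06). Without hormone it read 8.64 and 8.87 in knockout cells, against 7.10 on replicate 1 and 9.30 on replicate 2 in control cells. The knockout arrays were above the 3 control arrays of the 7-array fit, and below control untreated replicate 2. With 7 arrays the untreated difference was 1.65 (SE 0.13, 3.15-fold, adjusted p = 0.000174), with replicate 2 in place of replicate 1 it was -0.55, and with 8 arrays 0.55 (adjusted p = 0.619). The difference with corticosterone uses no untreated array. In the 8-array fit its size is the same but it was not called (adjusted p = 1), and when only the 4 treated arrays were fitted it was called.

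The second Me1 probe set was also higher in knockout cells, but its arrays were not in the same order. It read 7.14 and 7.40 in knockout and 5.28 and 4.72 in control cells with corticosterone. Without hormone it read 7.24 and 7.05 in knockout cells, against 5.52 and 6.84 in control cells. On this probe set control untreated replicate 2 lay below every knockout array, and the treated and untreated knockout arrays overlapped. Tested on its own, it was higher in knockout cells by 2.27 with corticosterone (adjusted p = 0.000266) and by 1.63 without it with 7 arrays (adjusted p = 0.00992).

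**Figure D3:**
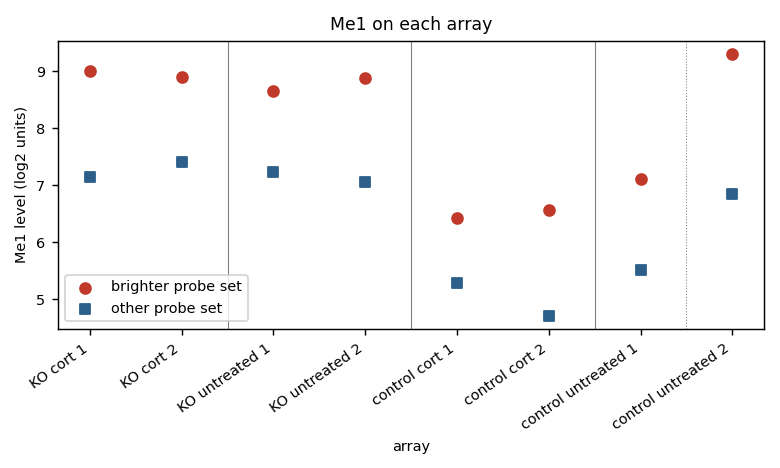
Me1 level in log2 units on each of the 8 arrays, for its brighter probe set (circles) and its other probe set (squares), with the knockout arrays on the left and control arrays on the right. All 4 knockout arrays lie between 8.64 and 9.0 on the brighter probe set, 3 control arrays lie between 6.43 and 7.10, and control untreated replicate 2, right of the dotted line, lies at 9.30.

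No other gene of the 35 was called between genotypes. With corticosterone 1.29% of all genes were called higher and 0.335% lower in knockout cells, and without it 1.43% and 0.555%. Apart from Me1, differences with corticosterone lay between -0.18 and 0.36. At an unadjusted p under 0.05, 6 sterol enzymes were lower in knockout cells with the hormone and none was higher, with none passing the adjustment. Of all 18194 genes, 1786 were under it there in either direction. The smallest adjusted p among the sterol enzymes was 0.128 with corticosterone, for Idi1 (-0.15), and 0.119 without it, for Msmo1 (-0.17). Scd2 was just outside the threshold without hormone (-0.21, adjusted p = 0.0507). Fads2 had knockout minus control differences of 0.36 with corticosterone (adjusted p = 0.249) and 0.38 without it (adjusted p = 0.241). With 8 arrays 0.0% of all genes were called in either genotype comparison, and 1 of the 35 genes had an unadjusted p under 0.05 in each. So had 229 of all 18194 genes with corticosterone and 807 without it. Without hormone, more of the 35 genes were called when knockout untreated replicate 1 was left out, and most when control untreated replicate 2 took the place of replicate 1. In both of these fits calls rose over all genes too, so they are not a result about the 35.

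The hormone response of these genes was not shown to differ between genotypes. No gene of the 35 was called by limma for the interaction, the knockout response minus the control response, where 0.0165% of all genes were called with 7 arrays and 0.0% with 8. At an unadjusted p under 0.05, 0 of the 35 were found with 8 arrays, where 199 of all 18194 genes were. With control untreated replicate 2 in place of replicate 1, calls for the interaction rose over all genes, so calls among the 35 there are not a result about these genes. The hormone difference of Me1 was 0.19 in knockout cells, which did not pass (adjusted p = 0.304), and -0.60 in control cells (SE 0.13, adjusted p = 0.0145), an interaction of 0.79 (SE 0.16, adjusted p = 0.533). Apart from Me1 the interactions lay between -0.20 for Lpin1 and 0.12 for Scd2. For the brightest probe set of Hmgcs1, which passed in knockout but not in control cells, the interaction was -0.09 with a 95% interval of -0.18 to 0.003.

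Other lists around the pathway were counted in the same fits, where 7.96% of all genes were called lower in knockout and 5.95% in control cells. Of 9 genes of SREBP processing and turnover, 3 were called lower in knockout and 2 in control cells, among them Erlin2, an endoplasmic reticulum protein of sterol-regulated degradation (-0.24 in knockout and -0.25 in control cells), and Nfya, a subunit of NF-Y (-0.14 and -0.18). Of 15 further lipid synthesis genes, 5 were lower in knockout and 1 in control cells. Acsl3, which activates fatty acids, read 8.30 and 8.35 with corticosterone in knockout cells, against 9.11 and 9.07 without it (-0.77, adjusted p = 4.20e-05), and fell as much in control cells (-0.77, adjusted p = 0.000211). Mid1ip1, an activator of acetyl-CoA carboxylase, fell by 0.26 in knockout cells (adjusted p = 0.000474) and was not called in control cells (-0.13, adjusted p = 0.0581). Of 8 genes of the isoprenoid branch, none was called lower, and Nus1, of dolichol synthesis, was higher by 0.32 in knockout and 0.33 in control cells.

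Sterol efflux and LXR genes moved in both directions. Of 6 measured, 4 were higher and 2 lower in knockout cells, where 5.75% of all genes were called higher and 7.96% lower. In control cells, too, some were called higher and some lower. Nr1h3, which encodes LXR alpha, read 10.07 and 10.13 with corticosterone, against 9.77 on both arrays without it, in knockout cells (0.33, adjusted p = 0.00122), and differed by 0.37 in control cells (adjusted p = 0.00297). Ch25h, which makes an oxysterol that blocks SREBP release, read 6.26 and 5.94, against 7.01 and 7.10, in knockout cells (-0.95, adjusted p = 0.00161), and differed by -0.67 in control cells (adjusted p = 0.0374).

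**Figure D4:**
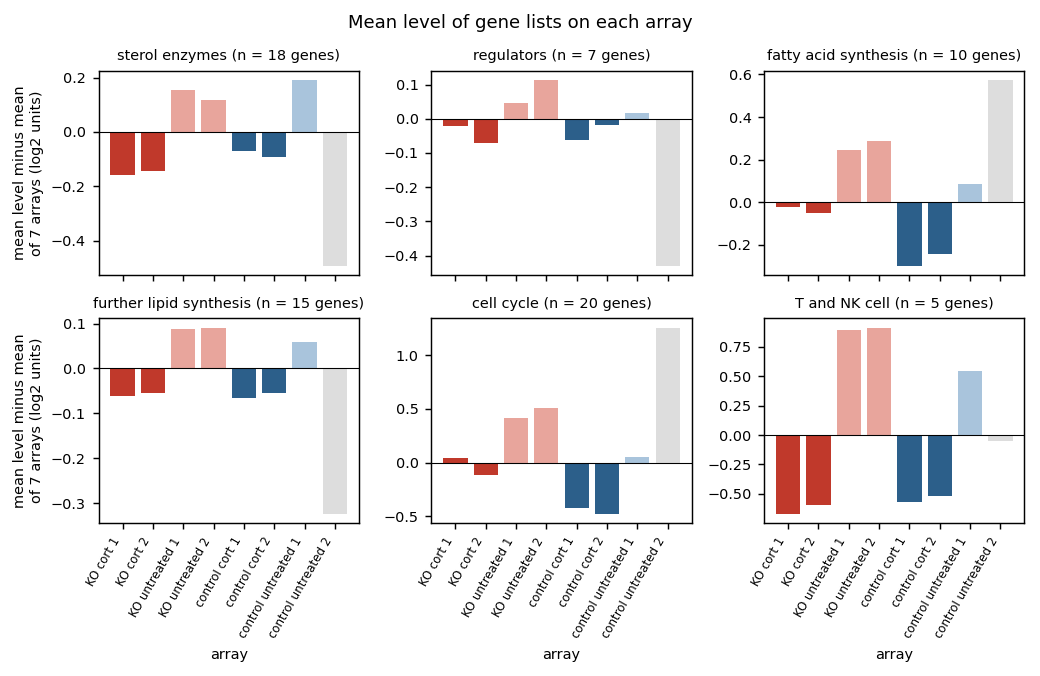
Mean level of 6 gene lists on each of the 8 arrays, in log2 units relative to the list's mean over the 7 arrays of the main fit, with a separate vertical scale per panel, knockout arrays in red and control arrays in blue (darker with corticosterone, lighter without), and control untreated replicate 2 in grey. Sterol, fatty acid, further lipid synthesis, cell cycle and T and NK cell lists are lower with corticosterone in each genotype on the 7 coloured arrays, and the cell cycle list is higher in knockout cells.

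Levels of other programs moved alongside. The mean of the 18 sterol enzymes was 10.36 to 10.37 with corticosterone and 10.64 to 10.67 without it in knockout cells, and 10.43 to 10.45 with it, against 10.71 on replicate 1 and 10.02 on replicate 2, in control cells. Without Me1, the other 9 fatty acid genes averaged 9.72 and 9.70, against 10.06 and 10.08, in knockout cells, and 9.70 and 9.75, against 10.05 and 10.35, in control cells. On the 7 arrays the treated means of both lists lay below the untreated means of the same genotype.

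Cell cycle genes also fell, 14 of 20 in knockout cells (median -0.40) and 11 of 20 in control cells (median -0.38). Their mean was 8.47 to 8.62 with corticosterone and 9.0 to 9.08 without it in knockout cells, and 8.11 to 8.16 with it, against 8.63 and 9.84, in control cells. Tk1, thymidine kinase, differed by -1.36 in knockout and -1.34 in control cells. Between genotypes, 10 of the 20 cell cycle genes were called higher in knockout cells with corticosterone, where 1.29% of all genes were. Fewer of the 20 were called higher without it.

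Lymphocyte markers were lower with corticosterone too. Of 5 T and NK cell markers, 5 were called lower in each genotype, and of 5 B cell markers 4. The T and NK list averaged 4.65 to 4.72 with the hormone and 6.20 to 6.23 without it in knockout cells, and 4.75 to 4.80 with it, against 5.86 and 5.26, in control cells. The B cell list averaged 6.75 to 6.87, against 7.98 to 8.13, in knockout cells, and 6.78 to 6.82, against 7.72 and 7.23, in control cells. None of 4 adipocyte markers was called by limma in knockout cells, where the adipocyte list averaged 4.77 to 4.93, against 4.90 to 4.96, below the array medians. Lipe alone of them lay above the array medians there, at 7.41 to 7.58. The macrophage list without the hormone-induced Cd163 averaged 12.36 to 12.44 on the 7 arrays and 11.79 on control untreated replicate 2. Some of its members were called: in knockout and in control cells Cd14 (0.23 and 0.35), Fcgr1 (0.28 and 0.41) and Adgre1 (0.17 and 0.13) were called higher, and Itgam lower (-0.52 and -0.38).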

How the data were processed

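Per the submitters' processing notes the deposited log2 values come from RMA in R 2.7, with 1 value for each probe set on each array. That method removes background, equalises the arrays' distributions and combines a set's probes, so a level is relative to its array and low levels are compressed. Array medians were 5.55 to 5.58, and no 2 arrays were identical. With 8 arrays their number limits the precision. Signal over background was not tested, and hybridisation dates are not used here.

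The platform annotation tied 34958 of 45101 probe sets to a single gene. Another 932 were tied to several genes, 9147 to none, and 64 were controls. Gene identifiers updated 34754 of the symbols, while 204 stayed as annotated. This left 18194 genes, 9012 of them with several probe sets, of which the brightest was taken. Fits used limma 3.58.1 (R 4.3.3), a coefficient for each group, a trend of the variance on the mean level and 5 comparisons. Benjamini-Hochberg adjustment ran over all genes, and a gene was called at an adjusted p under 0.05. SEs and 95% intervals come from the same fit, which had 3 residual degrees of freedom with 7 arrays and 4 with 8, and which was tested on simulated data. Sequences are RefSeq promoters of GRCm38.p6.

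The members, lists, motifs, tests and the choice of 7 arrays were made with earlier results of these data known, so a list is described by counts and medians, with no test. Per-array values are given for all regulators, for up to 8 sterol enzymes and 6 fatty acid genes with the smallest p in the hormone comparison of knockout cells, for members not called there, and for members called between genotypes. From every other list up to 2 genes with the smallest p may be named, and Nr3c2 and Nr3c1 always. Alternatives changed the arrays used, array weights, the replicate block, the variance trend, the probe sets, a level filter, the scaling and a fold minimum. The replicate numbers were not taken to pair the samples: same-numbered arrays' deviations from their group means correlated between -0.29 and 0.40 across genes.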

Additional observations from a re-analysis of the deposited data

Results flagged for a closer look

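With control untreated replicate 2 left out, the brighter Me1 probe set read higher on both hormone-treated arrays than on the untreated ones in knockout cells. In control cells both treated arrays lay below the untreated one. In knockout cells it read 9.0 and 8.89 with the hormone, against 8.64 and 8.87 without it, and in control cells 6.43 and 6.57, against 7.10. The knockout difference of 0.19 did not pass (95% interval -0.04 to 0.42, adjusted p = 0.304 by limma), and the control difference of -0.60 did (adjusted p = 0.0145). The interaction of 0.79 log2 units (95% interval 0.42 to 1.16) had an unadjusted limma p of 0.000867 and did not pass adjustment over all genes (adjusted p = 0.533). On control untreated replicate 2 this probe set read 9.30, above all 4 knockout arrays (8.64 to 9.0), and the part of that array's 3′ signal and fibroblast markers in the reading was not tested. The other Me1 probe set did not separate the knockout arrays, at 7.14 and 7.40 with the hormone and 7.24 and 7.05 without it. Its hormone difference was 0.13 in knockout and -0.52 in control cells, an interaction of 0.64. It read 6.84 on control untreated replicate 2, below all 4 knockout arrays.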

How the results depend on the processing

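For the 26 genes called in knockout cells the direction was the same in every alternative run, and 12 of the 26 calls held in each one that kept control untreated replicate 2 out and set no fold minimum (Cyp51, Fads2, Fasn, Fdft1, Idi1, Lss, Mvd, Scd1, Scd2, Sqle, Srebf2 and Stard4). In control cells 6 of 21 did (Cyp51, Fasn, Idi1, Mvd, Scd2 and Sqle), and Me1 did in both genotype comparisons. With 8 arrays every count of calls in the 5 comparisons was 0. With array weights it was 0 in control cells, 0 for higher calls in knockout cells and 0 for genotype without hormone, where both control untreated arrays received a weight of 0.051. Some signs of the brightest probe sets turned in control cells with 8 arrays, weighted or not. These were Acaca (0.065), Fdps (0.66), Msmo1 (0.60), Nsdhl (0.76), Sc5d (0.39) and Srebf2 (0.11). When 1 array was left out at a time, control differences ranged over -0.59 to 0.67 for Acaca, -0.42 to 1.74 for Fdps, -0.44 to 0.32 for Idi1, -0.23 to 1.43 for Msmo1 and -0.54 to 0.21 for Mvd. They ranged over -0.32 to 1.82 for Nsdhl, -0.32 to 1.09 for Sc5d, -0.43 to 0.16 for Sqle and -0.23 to 0.42 for Srebf2, and the untreated genotype difference of Me1 over -0.55 to 1.77. In these fits each sign turned only when replicate 2 stood in for control untreated replicate 1. The cause was not tested.

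Without a variance trend 14 genes were lower in knockout cells (6 sterol, 2 regulators) and 8 in control cells (5 sterol, 0 regulators, 3 fatty acid), and 0 were higher in either. A fold minimum of 1.5 left 4 lower in knockout cells (2 sterol, 0 regulators, 2 fatty acid) and 4 in control cells (0, 0 and 4), and 0 higher. Means of probe sets left 4 fatty acid genes lower in knockout cells and 1 regulator in control cells. Higher calls numbered 0 in knockout cells with 5 arrays and with the knockout arrays alone, and 2 in control cells with 5 arrays and with a mean level of at least 6. Genotype without hormone gave 2 calls with that filter or with median centring.

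With the replicate number as a block, which does not pair these samples, 22 genes were lower in knockout cells and 18 in control cells (1 regulator), and 0 were higher in knockout cells. Leaving out 1 array at a time gave 17 to 24 lower in knockout cells (8 to 13 sterol, 2 to 4 regulators, 5 to 7 fatty acid) and 0 to 1 higher. In control cells it gave 9 to 21 lower (6 to 12 sterol, 0 to 2 regulators, 3 to 7 fatty acid) and 1 to 18 higher, and it gave 1 to 28 genotype calls without hormone and 0 to 27 for the interaction. The upper ends of the higher, genotype and interaction calls all come from replicate 2 standing in for control untreated replicate 1, where calls rose over all 18194 genes too. Lower calls over all genes also differed between the fits that left out 1 array.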
